A study of Arabidopsis thaliana with 6 samples.

Results

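Mature pollen of an Arabidopsis thaliana T-DNA insertion line, called TF2, was compared with wild-type pollen on 4 Affymetrix ATH1 arrays, 2 per group, of the 6 arrays in the series. The TF2 arrays were titled Col-TF2 with the stock code SALK_018864, and the wild-type arrays Col-WT with the stock code N1092. Both groups shared the Col-0 background, the developmental stage and the growing conditions, which were compost, 21 °C and 75% humidity. The line stands for 1 insertion allele, and the labels give neither its zygosity nor how many plants were pooled. The other 2 arrays, from a SAIL insertion line called TF1 (SAIL_1168_C11), entered the same fit for a common estimate of spread, and their values are given beside those of TF2 where they help. The labels do not say that replicate arrays came from separate plants or collections, so p-values measure only the spread between these arrays, which may be technical.

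A mature pollen grain holds a pair of sperm cells within a larger vegetative cell, which forms the pollen tube after landing on the stigma. The mature grain stores much of the RNA it needs for germination, and its most abundant transcripts encode wall enzymes, cytoskeletal proteins, membrane pumps and small secreted proteins used in tube growth. From knowledge other than the labels, SALK_018864 carries its T-DNA in BZIP34, the gene of a basic leucine zipper transcription factor linked to pollen wall formation and lipid metabolism. Signal of BZIP34 was 35.5 and 55.7 in wild type, against 128 and 123.1 in TF2 and 27.7 and 59.8 in TF1. Both TF2 arrays lay above both wild-type arrays (log2 change 1.30, SE 0.46, limma adjusted p = 0.0479). That call was lost whichever of the 4 arrays was left out (adjusted p = 0.13 and 0.112 without TF2 line replicate 1 and 2, and 0.256 and 0.0929 without wild type replicate 1 and 2). Where the probes lie along the gene, before or after the T-DNA, was not looked up, and the reading is no check of the labels.

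Signals are array intensities as deposited, and changes are differences of log2(signal + 10.3), which understate the change of dim genes. An adjusted p under 0.05 in limma, after Benjamini-Hochberg adjustment over all 11373 probe sets kept, counts as a call, and 30.8% of probe sets were called. Genes named beyond the lists' 3 largest changes and the ranked sets below were chosen after their values were seen. Median signal was 38.03 and 42.96 in wild type against 35.6 and 37.3 in TF2. Across probe sets, which are not independent replicates, replicate arrays correlated at 0.948 in wild type and 0.908 in TF2, and arrays of the 2 groups at 0.755 to 0.762. The actin 3′ control read 624 and 636 in wild type and 93.9 and 84.6 in TF2, and the GAPDH 3′ control 794 and 719 against 92.6 and 139. The ubiquitin 3′ control read 4569 and 4251 against 4108 and 4651, so the groups overlapped for that control and not for the other 2. Along the same transcripts, the actin 5′ control went the other way from the 3′ control, with 104.2 and 84.8 in wild type and 229 and 349 in TF2, and the GAPDH 5′ control read 158 and 137 against 49.2 and 31.2. The middle ubiquitin control did not overlap either, at 934 and 1064 against 1452 and 1182. The part of RNA quality in the changes was not tested.

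A nuclear gene was a gene of chromosomes 1 to 5 with a probe set for which the annotation lists that gene alone. Of 13265 such genes 6151 (46.4%) passed the filter on low signal, 84 of them through probe sets marked as shared between transcripts, and 801 of these carried a gene symbol. The gene lists below were matched on symbols and other names, so a gene without a matching name could not enter them. Their counts cover named members and not whole classes of genes. In TF2 pollen 976 nuclear genes were higher (15.9% of those tested) and 735 were lower (11.9%), so that 27.8% were called in all. In all 976 and 735 the TF2 and wild-type arrays did not overlap, so a lack of overlap describes a called gene and adds nothing to its call. The 2 directions differed in size more than in number. The median change of the called rises was 0.98, from a median wild-type signal of 391.3 to 754.3, and that of the called falls was −1.87, from 208.4 to 51.98. At least 2-fold changes were made by 461 genes that rose (7.49%) and 651 that fell (10.6%). At least 4-fold changes were made by 37 that rose (0.602%) and 314 that fell (5.1%), and 72 genes (1.17%) fell at least 8-fold. On both scalings at once, deposited and quantile normalized, 312 rose (5.07%) and 511 fell (8.31%) at least 2-fold, 34 (0.553%) and 255 (4.15%) at least 4-fold, and 60 (0.975%) fell at least 8-fold. The count of falls rested on both wild-type arrays: it was 366 without wild type replicate 1 and 378 without wild type replicate 2, and the count of rises was 649 without wild type replicate 2.

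The same table after quantile normalization gave 1010 higher (16.5%) and 609 lower (9.98%) of 6105 nuclear genes. Both scalings called 731 genes higher (11.9% of genes tested, and 74.9% of the rises on the deposited scaling) and 579 lower (9.41%, and 78.8% of the falls). Quantile normalization lost 245 rises and 156 falls and added 279 rises and 30 falls. The median change of all tested nuclear genes was 0.14 as deposited and 0.24 after quantile normalization, so both scalings placed the typical gene slightly above wild type.

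Rises and falls lay at different signal levels. When the nuclear genes were ordered by signal in 4 equal groups, 788 of 1538 in the strongest group (signal from 157.9 up) were higher (51.2%) and 217 lower (14.1%), with a median change of 0.55. In the weakest group 1.95% were higher and 6.57% lower. At the top of the range nearly all genes rose together: 95 of the 100 with the strongest signal were higher and 2 lower, with a median of 0.97. After quantile normalization that block of rises was gone, with 14 of the 100 higher, 10 lower and a median of 0.04. The method gives every array the same set of values, so it removes a rise shared by the strongest signals, whatever its origin. Its loss is thus no test of these rises. The 100 strongest probe sets of each array held 31.5% and 30.8% of the signal in wild type and 37.1% and 40.1% in TF2. Among the strongest 1000 67.9% were higher and 7.5% lower as deposited (median 0.73), and 476 and 97 genes after quantile normalization (0.39). The strength of a probe set's signal depends on its probes as well as on its transcript, so these ranks order probe sets and not transcripts.

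**Figure D1:**
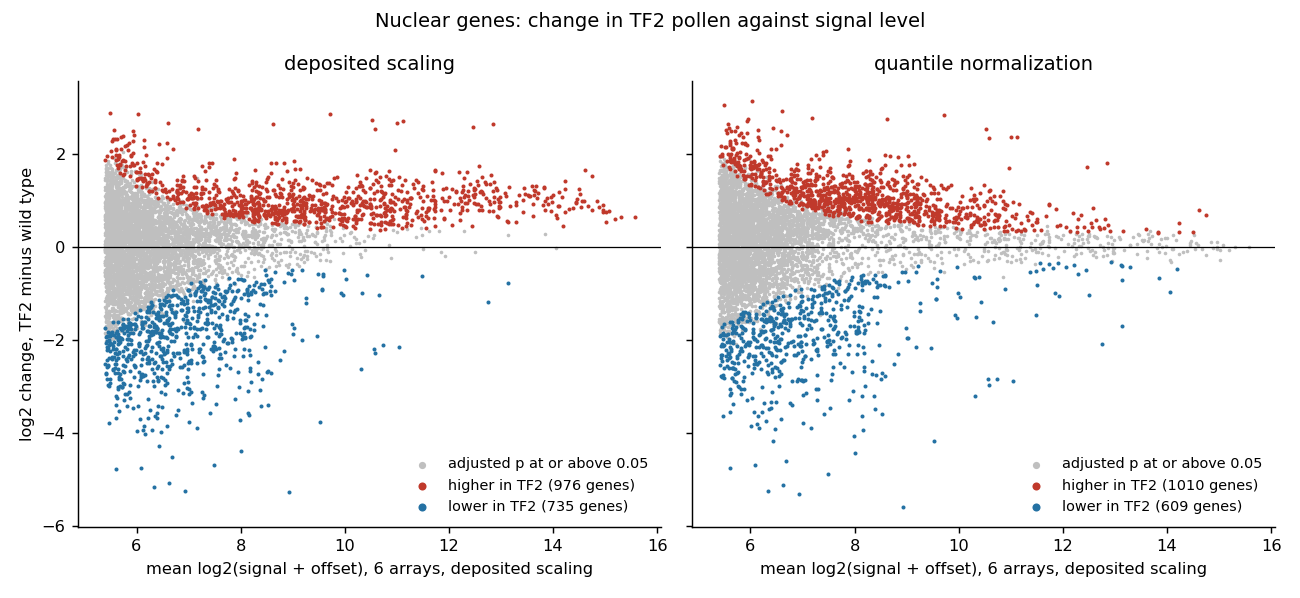
Log2 change of each tested nuclear gene in TF2 against wild type (y axis) by its mean log2 signal over 6 arrays (x axis), as deposited (left) and after quantile normalization (right). Red and blue points are genes called higher or lower. On the left the genes with the strongest signal lie as a band near 1, and on the right that band lies near 0, while the deep falls stay in place.

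The 10 largest changes each way are set aside here, and the 20 nuclear genes after them in each direction were taken from those called on both scalings with no overlap between the arrays of the 2 groups. The 20 next falls ran from −4.79 to −3.69 as deposited and from −4.90 to −3.56 after quantile normalization. Their wild-type means ran from 199.4 to 2893 with a median of 359.4, and in 8 of the 20 both TF2 arrays lay under the offset of 10.3. With that offset a fall this large needs a clear wild-type signal, so such signals were part of their choice. All 20 kept their call under every alternative tried that still tested them, of which quantile normalization was fixed by the way they were chosen.

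Of the 6 genes with a symbol among the 20, 3 belong to the chloroplast or to photorespiration. LHCB4.2, a minor antenna protein of photosystem II, read 372 and 389 in wild type and 4.36 and 3.32 in TF2 (log2 change −4.79, SE 0.56, adjusted p = 4.39e-05). Its paralogue LHCB4.1 read 429 and 381 against 22.3 and 11.9 (−3.94, SE 0.53, adjusted p = 0.000116). HPR, the peroxisomal hydroxypyruvate reductase of photorespiration, read 727 and 690.0 against 61.5 and 3.4 (−4.52, SE 0.63, adjusted p = 0.000168). In each of these 3 genes every TF2 array lay far below every wild-type array. In TF1 the same genes were also low, at 14.8 and 7.51, 66.1 and 14.1, and 22 and 62, and none of them passed the test between the lines (adjusted p = 0.644, 0.541 and 0.664).

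Other named members of the 20 encode enzymes and a peptide signal. FDH, the mitochondrial formate dehydrogenase, read 233 and 195 in wild type and 6.74 and 4.75 in TF2 (−3.80, adjusted p = 0.000934). ALDH10A8, an aldehyde dehydrogenase of the betaine aldehyde group, read 228 and 177 against 4.83 and 6.75 (−3.71, adjusted p = 5.16e-05). RALFL33, a member of the rapid alkalinization factor peptides that signal through receptor kinases in growing cells, read 339.9 and 329 against 6.45 and 32.4 (−3.69, adjusted p = 0.000599). All 3 were reduced to the weak end of the signal range, and wild type and TF2 did not overlap.

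The other 14 of the 20 are known here by locus only, so any chloroplast genes among them were not counted above. AT1G78040 had the strongest signal of them in wild type, 2878 and 2908, and read 194 and 211 in TF2 (−3.77, SE 0.14, adjusted p = 1.67e-08). AT2G26500 went from 1325 and 1223 to 98.7 and 76.1 (−3.73, SE 0.21), and AT1G09310 from 1027 and 1165 to 67.7 and 13.1 (−4.69, SE 0.43). All 3 passed from signals above 1000 to a small part of them.

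Between the lines, 170 of 6151 nuclear genes were lower in TF2 than in TF1 (2.76%) and 63 higher (1.02%), and the 170 took in 9 of the 20 genes. AT5G38170 read 773 and 747 in wild type, 13.3 and 46 in TF2, and 586 and 586 in TF1, so TF1 lay near wild type and TF2 far below both (TF2 minus TF1 −4.03, adjusted p = 1.75e-05). AT3G19690 was at 201 and 198 in wild type, 2.18 and 6.45 in TF2, and 277 and 277 in TF1 (−4.31, adjusted p = 1.75e-05). AT1G29670 read 327 and 268, 5.23 and 5.76, and 102.6 and 152 (−3.10, adjusted p = 0.000567). In these 3 genes the TF2 arrays lay below the arrays of both other groups. The other 6 were AT4G23670, AT5G02240, AT4G21620, ALDH10A8, AT1G28400 and AT1G78040, with differences between the lines from −2.58 (AT5G02240) to −1.62 (AT1G78040).

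**Figure D2:**
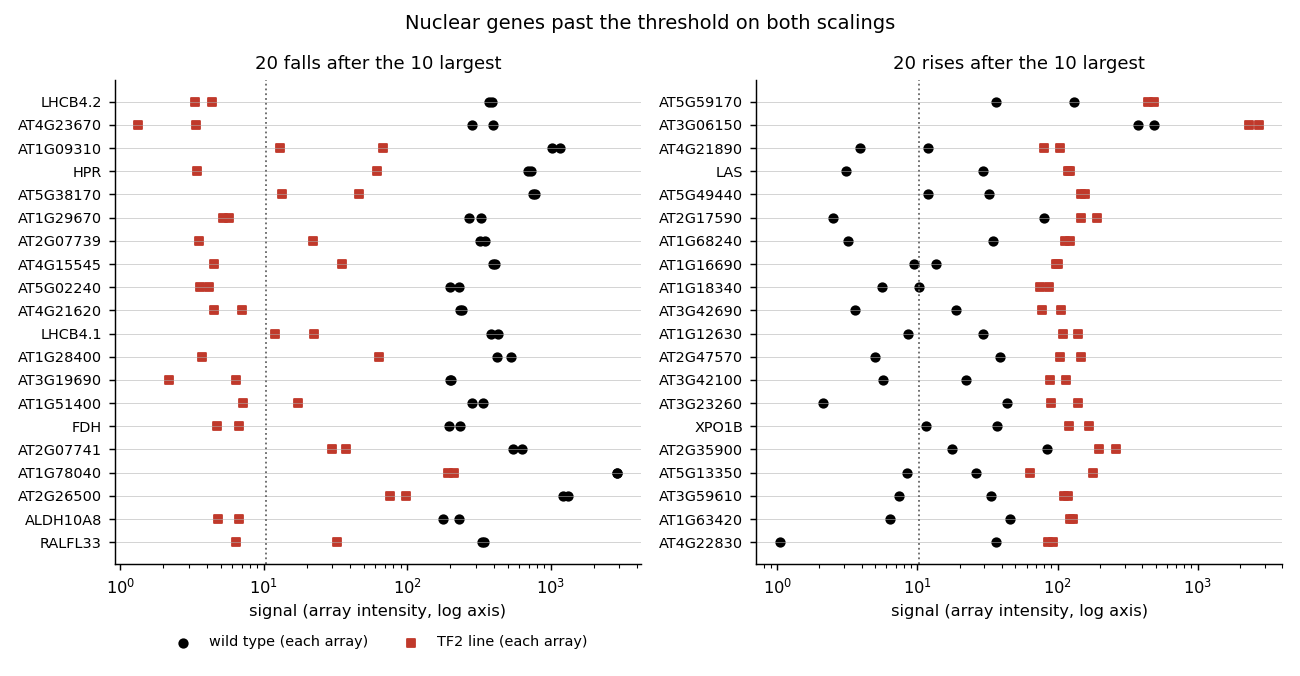
Signal of each array, on a log axis, for the 20 nuclear genes that follow the 10 largest falls (left) and the 10 largest rises (right), with wild type as black circles and TF2 as red squares. The dotted line marks the offset of 10.3. The falls start from wild-type means of 199.4 or more, and with this offset a fall of their size needs a clear wild-type signal. Of the 20 rises, 15 have a wild-type array under the offset.

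Most tested members of the list of nuclear photosynthesis genes were lower. Of 13 tested, 11 fell on both scalings, against 9.41% of all nuclear genes. The median of the 13 was −2.90 (−2.87 after quantile normalization), against 0.14 over all nuclear genes. RCA, which encodes Rubisco activase, read 1744 and 1618 in wild type and 132 and 122 in TF2 (−3.62, adjusted p = 1.46e-07). PSBW, a small subunit of photosystem II, read 1002 and 799 against 92.6 and 109.8 (−3.02, adjusted p = 5.02e-06). PRK, the phosphoribulokinase of the Calvin cycle, read 476 and 398 against 88.5 and 85.3 (−2.20, adjusted p = 8.2e-05). The 2 members that did not pass the test were LHCB4.3, at 50.1 and 117 against 69.6 and 81 (−0.04), and CHLM, a chlorophyll synthesis enzyme, at 128 and 92.5 against 68.9 and 26.8 (−1.14, adjusted p = 0.0894). A list meant for chloroplast protein synthesis and import held 11 tested genes of mixed kind, and none of its 3 called members has that role: GPDHp, the plastid glycerol-3-phosphate dehydrogenase, rose (0.61, and not called after quantile normalization), and GR, the plastid glutathione reductase (−1.85, and adjusted p = 0.0861 without wild type replicate 1), and AT4G01150, which RefSeq also names CURVATURE THYLAKOID (−3.04), fell.

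The 7 leaf markers tested are all members of that photosynthesis list, so they give no separate reading of green tissue: 6 were lower, and their summed signal was 4486 and 4344 in wild type and 359.6 and 405.3 in TF2. Among genes outside that list, 67 of 68 plastid-encoded genes were lower (median −3.85), with a summed signal of 66426 and 53776 against 3795.5 and 4067. Among 4 markers of flower and other sporophytic tissue BAN was lower, at 41.5 and 70 against 15.4 and 4.77 (−1.71, adjusted p = 0.0201, and 0.193 without wild type replicate 2), and DFR was not called at 116 and 91.8 against 74.7 and 139. Of 2 tapetum markers SWEET8 was lower, at 672 and 589 against 134.4 and 101.8, and AMS lay near the filter at 47.2 and 17.9 against 91.9 and 56.6. The part of other tissue in the falls was not tested, and in whole pollen RNA fewer cells of a type and less RNA per cell cannot be told apart.

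Some heat shock, calcium, water-stress and redox genes were lower, in counts to be read against 11.9% of all nuclear genes. Of 5 heat shock and protein folding genes tested, 4 were lower (median −1.67), 3 of them on both scalings. AT5G48570 read 667 and 668 in wild type, 61.1 and 34.3 in TF2 and 627 and 538 in TF1 (TF2 minus wild type −3.58, adjusted p = 5.85e-07; TF2 minus TF1 −3.39, adjusted p = 6.1e-06). Hsp70-2, a cytosolic chaperone, read 261 and 309, 23.3 and 23.5, and 221 and 225 (−3.12, adjusted p = 6.08e-06; −2.79, adjusted p = 9.95e-05). For both genes TF1 lay close to wild type and the TF2 arrays stood apart. Hop2, a co-chaperone that links Hsp70 and Hsp90, read 140.0 and 128 against 45.4 and 36.8 in TF2 (−1.49, adjusted p = 0.00906). The other called member, Hop3, read 84.4 and 68.7 against 32.7 and 6.87 (−1.67, limma adjusted p = 0.0489). It lost its call in 9 alternatives, among them quantile normalization and the omission of either wild-type array.

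Of 10 calcium sensors and touch-inducible genes 4 were lower on both scalings (median −1.27). AT1G76640, a calmodulin-like gene, read 353 and 300.3 in wild type, 106 and 86.6 in TF2 and 866 and 703 in TF1, so that TF2 lay below and TF1 above wild type (TF2 minus wild type −1.66, adjusted p = 6.06e-05; TF2 minus TF1 −2.90, adjusted p = 6.1e-06). CML42 read 248 and 232 against 104.3 and 86.4 (−1.25, adjusted p = 0.00175). CML38 and CML23 were also lower, by −1.86 and −2.37, but CML38 was not called without wild type replicate 1 (adjusted p = 0.0682) and CML23 was not called without TF2 line replicate 2 (adjusted p = 0.0508).

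Of 8 late embryogenesis abundant, dehydrin and water-stress genes 4 were lower (median −0.68), 3 of them on both scalings. COR47, a dehydrin, read 623 and 648 in wild type, 148 and 143 in TF2 and 124.4 and 96.4 in TF1 (−2.05, adjusted p = 2.03e-05). RD2 read 250.1 and 330.3 against 74.7 and 79.8 (−1.77, adjusted p = 0.00034). In both genes every TF2 array lay under every wild-type array.

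Of 22 redox genes 7 were lower, 6 on both scalings, with a median of −0.49. GILT, among the 10 largest falls, was the deepest (−5.28). PRX52, a secreted peroxidase, read 301 and 307 in wild type and 77.6 and 68.2 in TF2 (−1.92, adjusted p = 0.000144). ATHM2, a chloroplast thioredoxin, read 276 and 269 against 51.1 and 60.7 (−2.10, adjusted p = 0.000139). GRXC2, a glutaredoxin with strong signal, read 1269 and 1189.6 against 701 and 824 (−0.69, adjusted p = 0.00205). These falls were graded, from −0.69 to −5.28. The members SAPX, GR1 and GR were called at adjusted p = 0.0434, 0.0125 and 0.0164, and each lost its call without at least 1 array: without wild type replicate 1 the values were 0.132, 0.103 and 0.0861.

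Wall genes were called in both directions, in counts to be read against 15.9% higher and 11.9% lower over all nuclear genes. Of 18 xyloglucan enzymes and expansins 6 fell on both scalings and 2 rose, and the median of the 18 was 0.59. The falls included EXO, a gene of cell expansion kept in that list and among the 10 largest falls. XTH19, a xyloglucan endotransglucosylase/hydrolase, read 144 and 189 in wild type and 3.54 and 3.02 in TF2 (−3.69, adjusted p = 0.000324), EXLA1, an expansin-like protein, read 527 and 350.1 against 35.6 and 45.8 (−3.12, adjusted p = 7.86e-06), and XTH32 read 79.9 and 73.4 against 7.53 and 8.64 (−2.24, adjusted p = 0.0129). The expansins EXPA4, at 6952 and 6860.3 against 18090.0 and 16301, and EXPB5, at 2264 and 1924 against 3789 and 3729, rose by 1.31 and 0.84. No TF2 array of these 5 genes lay within the range of the wild-type arrays. After quantile normalization EXPA4 stayed called (0.38, adjusted p = 0.022) and EXPB5 did not (0.13, adjusted p = 0.511).

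The 20 rises that follow the 10 largest mostly started from weak wild-type signals. They ran from 2.11 to 2.54 as deposited and from 2.23 to 2.77 after quantile normalization. Of the 20, 16 had a wild-type mean below the median wild-type signal of 40.43, and 15 had a wild-type array under the offset. The median of their wild-type means was 19.75 and that of their TF2 means 120.9. Of the 20, 7 kept their call in every alternative that tested them and 13 lost it in at least 1, most often when an array was left out. The 7 were AT5G59170, AT3G06150, AT4G21890, LAS, AT5G49440, AT1G12630 and XPO1B.

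AT3G06150 was the clear exception in signal, at 485 and 372 in wild type, 2708 and 2322 in TF2 and 3279 and 3329.5 in TF1 (2.53, SE 0.15, adjusted p = 2.47e-07). AT5G59170 read 132 and 36.2 in wild type, 443 and 486 in TF2 and 87.9 and 55.3 in TF1. The TF2 arrays exceeded those of wild type (2.54, SE 0.44, adjusted p = 0.000749) and of TF1 (2.56, adjusted p = 0.00506). Of the 2 members with a symbol, XPO1B, a nuclear export receptor, read 37.1 and 11.5 in wild type and 119.7 and 167 in TF2 (2.24, adjusted p = 0.00135). LAS, a GRAS transcription factor known from side-shoot formation, read 3.11 and 29.3 against 118 and 122 (2.50, adjusted p = 0.00519). The TF2 arrays lay close together for LAS and less so for XPO1B. The wild-type arrays of both genes spread over a weak range in which the size of a change depends on the offset.

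Changes in the strongest signals were read from the 8 nuclear genes each way with the highest mean signal among those changed at least 2-fold and called on both scalings. The 8 rises ran from 1.25 to 1.65 as deposited and from 0.30 to 0.78 after quantile normalization, and all 8 kept their call in every alternative, quantile normalization being part of their choice. Several act on the wall. GH9A4, a family 9 glycosyl hydrolase, read 9865 and 9914 in wild type and 26304 and 26792 in TF2 (1.42, adjusted p = 6.38e-06; 0.51 after quantile normalization). AT59, a pollen pectate lyase, read 9012 and 8242 against 18774 and 23085 (1.27, adjusted p = 2.46e-05; 0.30 after quantile normalization). APPB1, of the invertase and pectin methylesterase inhibitor superfamily, read 8436 and 8099 against 20031 and 20542 (1.29, adjusted p = 1.8e-05; 0.31 after quantile normalization). These genes rose more than 2-fold on the deposited scaling and changed by much less after quantile normalization, with no overlap between wild type and TF2 as deposited. None of the 8 passed the test between TF2 and TF1: AT1G78460, the largest rise, read 38490.0 and 38394 in TF2 and 25522 and 42173 in TF1 (difference 0.23, adjusted p = 0.599).

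The 8 falls with strong signal ran from −3.77 to −1.03 as deposited and from −4.19 to −1.63 after quantile normalization, and all 8 were also lower in TF2 than in TF1. Quantile normalization thus moved the strong rises and the strong falls alike toward lower values. AT5G53820 read 3341 and 3006 in wild type, 544 and 470.3 in TF2 and 1221 and 1303 in TF1 (TF2 minus wild type −2.62, adjusted p = 9.28e-08). AT3G02480 read 3798 and 3673, 864 and 787, and 2954 and 2987 (−2.17, adjusted p = 1.41e-07). AT3G28980 had the strongest signal of the 8, at 9128 and 8817, 4032 and 3892, and 9199 and 9036 (−1.18, adjusted p = 1.16e-05; TF2 minus TF1 −1.20, adjusted p = 7.58e-05). For AT3G28980 the TF1 and wild-type arrays overlapped and TF2 lay below both. SRC2, a C2-domain protein, read 2174 and 2237, 1073 and 1076, and 1911 and 1609.8 (−1.03, adjusted p = 7.14e-05). AT1G52680, AT3G28840 and AT5G44300 changed by −2.19, −2.29 and −2.12, with TF1 between wild type and TF2 in each.

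**Figure D3:**
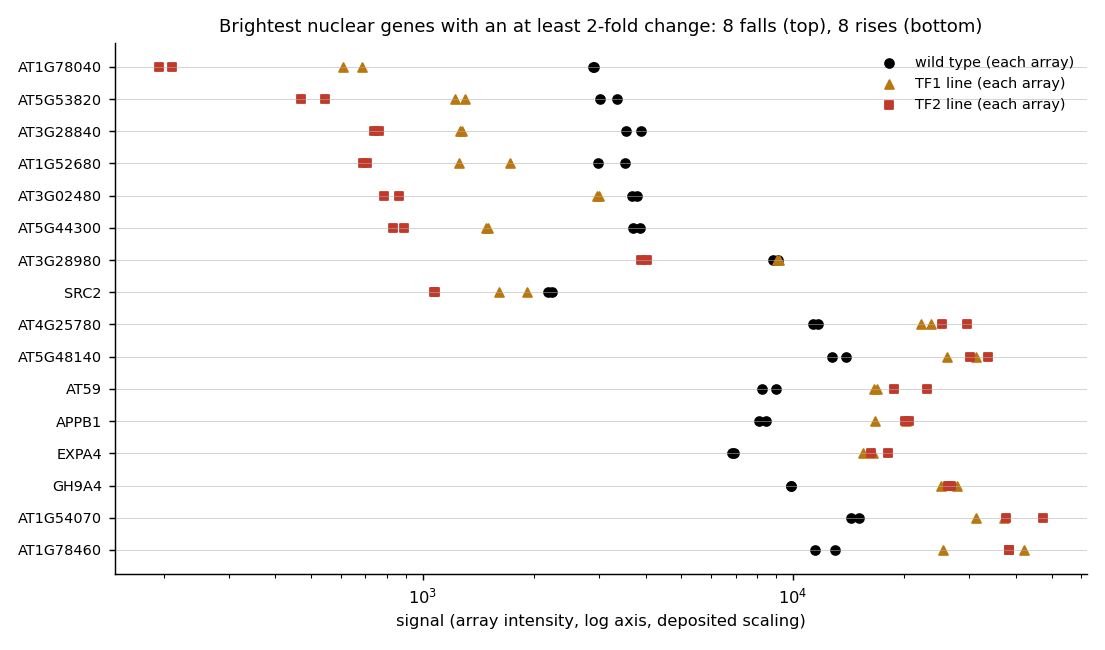
Signal of each array, on a log axis, for the 8 nuclear genes with the strongest signal among the at least 2-fold falls (top) and rises (bottom), with wild type as black circles, TF1 as orange triangles and TF2 as red squares. In the falls TF2 lies left of both other groups, and in the rises the arrays of both lines lie right of wild type and close to each other.

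Some transcription factors of pollen were higher. Of 11 tested, 6 rose, against 15.9% of all nuclear genes, and 5 of them did so on both scalings, with a median of 0.76 (0.73 after quantile normalization). In the strongest signal group (from 157.9 up), where AGL18, AGL65 and AGL104 lie, 51.2% of nuclear genes rose. The count is thus no sign that the list differs from genes of like signal, which was not tested. Of 34 transcription factors of all families, those 11 included, 9 rose and 2 fell, with a median of 0.42. The 6 rises include BZIP34, described above, and AGL66, at 0.50, which was not called after quantile normalization (adjusted p = 0.137) or without TF2 line replicate 1 (0.176) or wild type replicate 2 (0.222). AGL18, a MADS-domain factor, read 2537 and 2522 in wild type, 8463 and 7002 in TF2 and 4735 and 5824 in TF1 (TF2 minus wild type 1.602, adjusted p = 5.46e-06; TF2 minus TF1 0.55, adjusted p = 0.0454). AGL65, a MIKC* MADS-domain factor of pollen maturation and tube growth, read 581 and 448, 1540.5 and 1347, and 916 and 881 (1.48, adjusted p = 2.09e-05; TF2 minus TF1 0.68, adjusted p = 0.0294). For both factors TF1 lay between wild type and TF2. AGL104, another MIKC* factor, read 361 and 329.8 against 713 and 583 in TF2 (0.88, adjusted p = 0.0012). The 2 that fell were STZ, a zinc finger repressor of stress responses, at 526 and 448 against 99.4 and 138 (−1.96, adjusted p = 2.77e-05), and BZIP53, at 335 and 439 against 168 and 199.7 (−1.03, adjusted p = 0.00335, and 0.0681 without wild type replicate 2).

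Hormone genes were called both ways, with 2 of 7 higher and 3 lower, against 15.9% and 11.9% of all nuclear genes. JMT, the jasmonic acid carboxyl methyltransferase, is among the 10 largest rises (2.85). EIN3, the transcription factor at the end of the ethylene pathway, read 995 and 847 in wild type, 2401 and 1882 in TF2 and 2066 and 1883 in TF1 (1.20, adjusted p = 6.76e-05; 0.80 after quantile normalization). GH3.17, an auxin-conjugating enzyme, read 309 and 239.6 against 75.5 and 40 (−2.10, adjusted p = 0.000402). The TF2 arrays lay on 1 side of the wild-type arrays in each of these genes.

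Some transporters of ions and sugars were called in either direction. Of 17 cation transporters, channels and pumps 5 rose and 2 fell, all 7 on both scalings, with a median of 0.65. Over all nuclear genes 11.9% rose and 9.41% fell on both scalings. In the strongest signal group (from 157.9 up), where VHA-A3 and NRAMP5 lie, 51.2% rose as deposited. VHA-A3, a membrane subunit of the vacuolar proton pump, read 732 and 785 in wild type and 1512 and 1531 in TF2 (0.99, adjusted p = 9.12e-05; 0.71 after quantile normalization). NRAMP5, of the metal transporter family, read 1108 and 1069, 1869.7 and 2120.1, and in TF1 1372 and 1301 (0.86, adjusted p = 0.000233; TF2 minus TF1 0.57, adjusted p = 0.023). CHX19, a cation/proton exchanger, went the other way, at 274 and 337 against 77 and 106 (−1.64, adjusted p = 0.000558). Of 14 sugar transporters 2 rose and 3 fell, against 15.9% and 11.9% of all nuclear genes. TMT1, a tonoplast sugar transporter, read 364 and 346, 1209.6 and 851, and in TF1 642 and 612 (1.49, adjusted p = 4.92e-05; TF2 minus TF1 0.69, adjusted p = 0.0477). SWEET1 read 242 and 247, 491 and 401, and 213 and 183 (0.83, adjusted p = 0.0065; TF2 minus TF1 1.13, adjusted p = 0.00601), so that TF1 lay below wild type and TF2 above both.

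Of 27 membrane trafficking genes 4 rose and 1 fell, with a median of −0.06, and the rises were near the 15.9% of all nuclear genes. KEU, the Sec1-type regulator of vesicle fusion, read 839.5 and 864 in wild type and 1662 and 1499 in TF2 (0.88, adjusted p = 0.000183; 0.53 after quantile normalization). The other 3 rises were SEC1B (0.79), SEC22 (0.61) and AtSec20 (0.54), and the fall was VPS24.1 (−1.52). Each of these 4 lost its call without wild type replicate 2, at adjusted p = 0.0864 for SEC1B, 0.0811 for SEC22, 0.165 for AtSec20 and 0.21 for VPS24.1.

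Of 22 cytoskeletal genes 11 rose and 4 fell as deposited, and 4 and 3 of these did so on both scalings. Over all nuclear genes 15.9% rose and 11.9% fell as deposited, and 11.9% and 9.41% did so on both scalings. Among the 300 nuclear genes with the strongest signal 92% were higher as deposited. The median of the 22 moved from 0.50 to −0.02 after quantile normalization. XIJ, a class XI myosin, was a rise that held on both, at 271 and 248 in wild type, 617 and 626 in TF2 and 347 and 372 in TF1 (1.23, adjusted p = 0.000125; 1.39 after quantile normalization; TF2 minus TF1 0.78, adjusted p = 0.0189). Of 6 vegetative cell and tube growth genes 5 rose as deposited (median 0.70), and after quantile normalization none of these 5 was called (median 0.22). ANX1, a receptor kinase that guards the tube wall, read 1480.1 and 1156 against 2443 and 2158 (0.81, adjusted p = 0.000893), and after quantile normalization its change was 0.19 (adjusted p = 0.336). How far these genes rose depended on the scaling.

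Some kinase and cell cycle genes rose, and none was called lower. Over all nuclear genes 15.9% were higher and 11.9% lower, and in the strongest signal group (from 157.9 up) 51.2% and 14.1%. With lists this small, the lack of called falls says little. Of 4 protein kinases 3 rose, 1 of them on both scalings: ATMPK8, a mitogen-activated protein kinase, read 822 and 718 in wild type, 2044 and 1806 in TF2 and 1183 and 1429 in TF1 (1.31, adjusted p = 2.9e-05; TF2 minus TF1 0.56, adjusted p = 0.0485). Of 9 histone and cell cycle genes 3 rose on both scalings, while the median was −0.24. MGH3, the sperm-cell histone H3, read 536 and 617 against 1271 and 1048 (0.99, adjusted p = 0.000251; 0.82 after quantile normalization). PRL, the replication licensing protein MCM7, read 133.7 and 182 against 387 and 465 (1.39, adjusted p = 0.0004; 1.63 after quantile normalization). cdc2cAt, a cyclin-dependent kinase, read 3109 and 2931 against 8157 and 7316 (1.35, adjusted p = 7.53e-06; 0.42 after quantile normalization). MGH3 was also the 1 of 3 sperm cell genes that was called (list median 0.78).

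Of 36 ubiquitin ligases, F-box proteins and related genes 6 rose and 6 fell, 5 each on both scalings. CEG, an F-box protein gene, read 348 and 310.2 in wild type, 840.0 and 802 in TF2 and 502 and 449 in TF1 (1.29, adjusted p = 5.72e-05; TF2 minus TF1 0.78, adjusted p = 0.0135). PUB15, a U-box ubiquitin ligase, read 743 and 539.6 against 1572 and 1345 (1.19, adjusted p = 0.000148). SKP2A, an F-box protein of the cell cycle, fell from 94.4 and 105 to 5.37 and 7.33 (−2.72, adjusted p = 0.0027). Rises and falls were of equal number, against 15.9% and 11.9% over all nuclear genes.

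In the remaining lists the counts were as follows, against 15.9% higher and 11.9% lower over all nuclear genes. Of 23 other glycosyl hydrolases 3 rose and 1 fell, of 4 pectin enzymes 1 rose, and of 8 genes of RNA processing, the nucleolus and pentatricopeptide proteins 2 rose and 1 fell. Of 5 nuclear genes of mitochondrial function 1 rose and 2 fell, and of 11 secreted small proteins 3 rose and 4 fell. PGY1, the 1 tested member of the cytosolic ribosomal protein list, fell from 564 and 418 to 182 and 162 (−1.44, adjusted p = 0.000743). SKU5, the 1 tested member of the wall glycoprotein list, was lower (−2.12), but it lost its call without wild type replicate 1 (−2.14). OLEO3, an oleosin gene, was the 1 tested member of the list of lipid transfer proteins, GDSL lipases and oleosins. It was not called (0.83), and the list gives no reading of lipid transfer genes. None of the 4 cytochrome P450 genes tested was called (median 0.20).

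**Figure D4:**
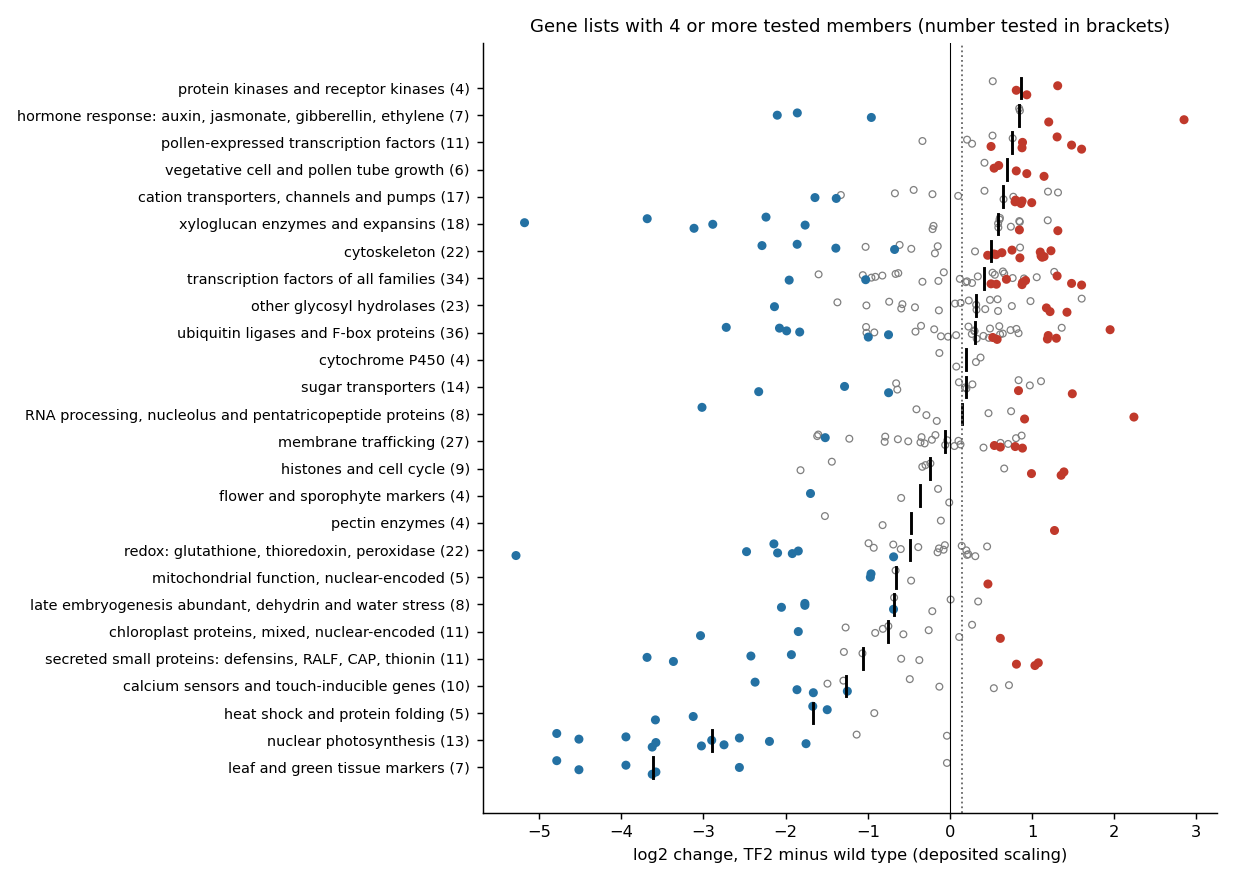
Log2 change, TF2 minus wild type on the deposited scaling, of every tested member of the gene lists with at least 4 tested members. Filled red and blue points are called members, open points are not called, black bars are list medians and the dotted line is the median of all nuclear genes, 0.14. The photosynthesis and leaf marker lists, which share 7 genes, lie at the far left, and the lists of hormone, kinase and pollen transcription factor genes have the highest medians.

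Several gene families held members called in opposite directions, and 11 families were read for this after values were seen. The counts of these families, here and below, are to be read against 15.9% higher and 11.9% lower over all nuclear genes. They describe single members and give no result about a family. Of 5 LIM domain proteins, which bundle actin filaments, the pollen members PLIM2a and PLIM2b rose and the widely expressed WLIM1, WLIM2a and WLIM2b fell. PLIM2a read 20237 and 20607 in wild type and 34108 and 39787 in TF2 (0.85), and PLIM2b read 6842 and 6672 against 13825 and 15398 (1.11). WLIM2a read 115 and 122 against 19.5 and 55.4 (−1.54), and in TF1 304 and 259 (TF2 minus TF1 −2.71, adjusted p = 0.00125). The rises of the pollen members depended on scaling: after quantile normalization PLIM2a was at −0.04, on the other side of 0, and PLIM2b at 0.21, neither called, while WLIM2a stayed at −1.30 (adjusted p = 0.0174). Single arrays mattered to the falls: WLIM1 was not called without TF2 line replicate 1 (adjusted p = 0.063), WLIM2a not without wild type replicate 1 (0.0522) or wild type replicate 2 (0.0618), and WLIM2b not without wild type replicate 1 (0.112).

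Of 7 tubulins 3 rose and 1 fell, against 15.9% and 11.9% of all nuclear genes. The strong-signal members TUA1, at 10279 and 10350.0 against 21438 and 23526 (1.12, adjusted p = 3.01e-05), and TUB9, at 7613 and 6803 against 16105 and 15750.0 (1.15, adjusted p = 2.75e-05), rose, and TUB6, at 234 and 190.1 against 77.8 and 70.7, fell (−1.39, adjusted p = 0.00297, and 0.0619 without wild type replicate 1). TUA6 also rose as deposited (0.46, adjusted p = 0.0114, and 0.0658 without wild type replicate 1, 0.0794 without wild type replicate 2 and 0.0741 without TF2 line replicate 2), and TUB7, TUB5 and TUB1 were not called. After quantile normalization TUA1, TUB9 and TUA6 were at 0.20, 0.26 and −0.20, not called, and TUB6 at −1.17 (adjusted p = 0.0116). Among SPIRAL1-like proteins, which bind microtubules, SP1L4 rose from 7631 and 7926 to 16840.0 and 19341 (1.21). After quantile normalization SP1L4 was at 0.28 and not called. SPR1 fell from 275 and 217 to 55.1 and 118 (−1.47, limma adjusted p = 0.00556), and it lost its call without wild type replicate 1 (−1.31). SP1L3 also fell, but it was not called after quantile normalization (−0.96, limma adjusted p = 0.0634).

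Secreted peptides also split. Of 4 RALF peptides RALFL26 rose, from 15104 and 14221 to 27624 and 32634 (1.03), as did RALFL25 (0.81), and RALFL33 fell (−3.69). Of 2 defensin-like LCR peptides LCR72 rose from 11316 and 9491 to 21769 and 21932 (1.07), and LCR69 fell from 319 and 358 to 22.4 and 24.5 (−3.37, adjusted p = 3.85e-06), with TF1 at 172 and 213 (TF2 minus TF1 −2.58, adjusted p = 0.000202). After quantile normalization the rises were at 0.13, −0.12 and 0.19 for RALFL26, RALFL25 and LCR72, none called, and the falls at −3.56 and −3.15 for RALFL33 and LCR69, both called.

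Other families also held calls in 1 direction or both. Of 8 aldehyde dehydrogenases 3 fell, ALDH10A8, ALDH11A3 (−2.44) and ALDH7B4 (−1.93), and ALDH7B4 read 479 and 495 in wild type, 116 and 124.4 in TF2 and 331 and 258 in TF1 (adjusted p = 2.07e-05; TF2 minus TF1 −1.22, adjusted p = 0.00444). Of 9 ATG8 genes, whose products coat autophagosomes, ATG8D and ATG8H rose (0.72 and 0.64) and ATG8F, APG8A and ATG8C fell (−1.65, −1.09 and −0.81). ATG8F, at 199.6 and 204 against 48.6 and 67.6, was the 1 of these 5 that kept its call when each array was left out. Without wild type replicate 2 the adjusted p was 0.134 for ATG8D and 0.288 for ATG8H, and without wild type replicate 1 it was 0.164 for APG8A and 0.118 for ATG8C. After quantile normalization APG8A (−0.80, adjusted p = 0.0501) and ATG8C (−0.53, adjusted p = 0.218) were not called. All 3 Aurora kinases rose as deposited: AUR2 read 1812 and 1801 against 4055 and 3532 (1.06; 0.37 after quantile normalization, adjusted p = 0.0229), with AUR1 at 0.84 (0.11 and not called after quantile normalization) and AUR3 at 0.98 (adjusted p = 0.072 without wild type replicate 2). NET2C, an actin-binding protein of the pollen tube membrane, rose from 361 and 352 to 861 and 699 (1.10, adjusted p = 0.000202; 1.14 after quantile normalization), and NET4B was lower (−2.29, adjusted p = 0.012, and 0.109 without wild type replicate 1).

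**Figure D5:**
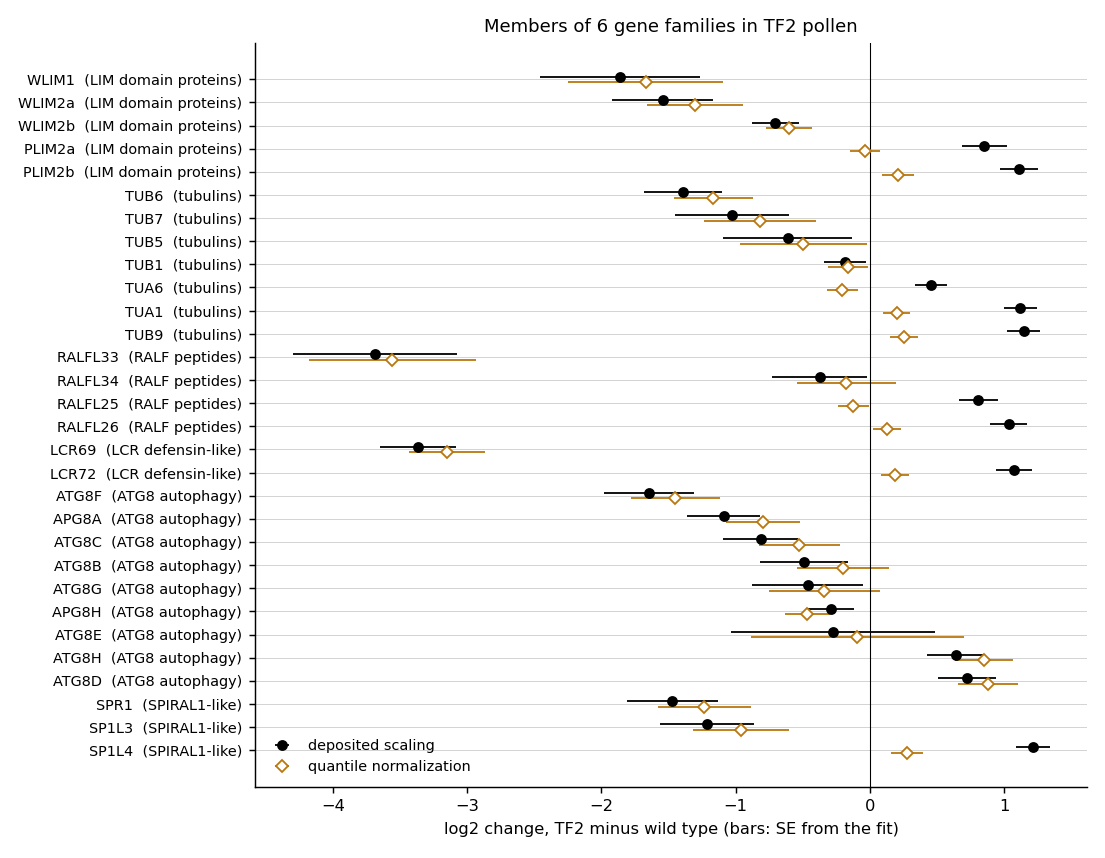
Log2 change, TF2 minus wild type, of the members of 6 gene families on the deposited scaling (black circles) and after quantile normalization (open diamonds), with bars of 1 standard error from the fit. The rises of PLIM2, tubulin, RALF, LCR and SP1L4 members move toward 0 or past it after quantile normalization. The falls move less, though those of APG8A, ATG8C and SP1L3 are then no longer called.

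Opposite calls on the 2 scalings were made for 11 nuclear genes, all higher as deposited and lower after quantile normalization. AT1G49290 read 5419 and 5484 in wild type and 9152 and 8183 in TF2, a change of 0.67 (adjusted p = 0.000994) that became −0.32 (adjusted p = 0.0371). UBC28, a ubiquitin-conjugating enzyme, read 4005 and 3153 against 5426 and 5163, and its change went from 0.57 to −0.38 (adjusted p = 0.127 as deposited without wild type replicate 2). AT4G18395 (0.59 and −0.35), AT5G47620 (0.55 and −0.40) and AT2G13350 (0.54 and −0.43) did the same, and AT5G47620 was not called as deposited without wild type replicate 2 (adjusted p = 0.055). The direction of these genes depended on the scaling, so none is given.

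The calls were spread over all 5 chromosomes. The share of tested genes that were higher ran from 15.3% on chromosome 4 to 16.9% on chromosome 3, and the share that were lower from 11% on chromosome 5 to 14.1% on chromosome 2. Chromosome 2 of Columbia carries a large copy of mitochondrial DNA. Of 20 tested genes named AT2G07, which lie around that copy, 7 were lower and 2 higher, and all 7 falls, AT2G07741 and AT2G07739 among them, were read by probe sets marked as shared between transcripts. AT2G07741 read 628 and 549.9 in wild type and 37.4 and 29.7 in TF2 (−3.77, adjusted p = 3.67e-06), and the part of mitochondrial transcripts in these values was not tested. Outside the named genes, 5093 probe sets with no gene or several genes listed held 695 rises (13.6%) and 1009 falls (19.8%), which are not named here.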

How the data were processed

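The authors deposited 1 linear signal intensity per probe set and array. The submitters' processing notes list MAS5 and GCOS, with no version in the sources used here. Of all probe sets, the 64 Affymetrix control probe sets were left out, 10.3 (the 25th percentile) was added, and log2 values with a mean at or above the median were kept (11373 of 22746). All 6 arrays were fitted by group in limma 3.58.1 (R 4.3.3; lmFit, eBayes with trend), two-sided, with Benjamini-Hochberg adjustment; the fit was tested on simulated data. The number of arrays limits the precision. Genes were named through the platform annotation and RefSeq (TAIR10.1, names and order only; 13436 of 13513 matched), with 1 probe set per gene, the strongest. Named were the 20 changes each way after the 10 largest, the 8 strongest signals each way, up to 3 called members of each of 31 lists, up to 5 opposite calls and BZIP34; other genes were chosen after their values were seen. Members and lists were chosen with earlier results of these data known, and 39 list matches to unrelated genes were removed by identity. The alternatives were quantile normalization, median centring, other offsets and filters, no trend, 4 arrays alone, a replicate block, and each array left out.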

Additional observations from a re-analysis of the deposited data

How the results depend on the processing

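Without the intensity trend 2185 probe sets were called in place of 3506, and 488 nuclear genes were higher in place of 976. Leaving out each array in turn gave 2113 to 3201 probe sets, 649 to 776 nuclear genes higher and 366 to 791 lower. Counts under the other alternatives stayed within 1.5 times the values reported: 3237 probe sets after quantile normalization, with 1015 nuclear genes higher and 609 lower when the filter was redone, and 1086 higher and 649 lower after median centring, which made 62.6% of nuclear calls rises in place of 57%. Without probe sets marked as shared, an alternative added after the data were seen, 968 were higher and 721 lower. With the replicate number as a block, 3558 probe sets, 989 higher and 754 lower nuclear genes were called. The block ended no call among the 130 genes named by rule, but it ended that of AtSec20 among the further genes (limma adjusted p = 0.0533). Deviations of arrays with the same number correlated at 0.022 between wild type and TF2, so no effect shared by number showed. That value cannot tell whether arrays with the same number were collected or processed together. Of those 130 genes 84 kept their call in every alternative that tested them, and of 92 further genes, chosen after values were seen or as family members, 45 did. The trend mattered most (29 of the 130 lost without it), then wild type replicate 2 (26). Quantile normalization reversed ANX2 (−0.021), AT1G49290 (−0.32), AT4G18395 (−0.35), UBC28 (−0.38), AT5G47620 (−0.40), AT2G13350 (−0.43), and among the further genes PLIM2a (−0.035), RALFL25 (−0.12), TUA6 (−0.20) and ACT11 (−0.11); the cause was not tested. Changes of genes near the offset in 1 group are limited by signal over background. The alternatives were read for TF2 against wild type alone. Differences between TF2 and TF1, some of them close to the threshold, were not checked under any of them.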

Other observations

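The genes below lie outside the lists and were picked after their values were seen, so they stand for no pathway. GAPC2, TPI, cICDH and CYTC-1, of central carbon metabolism and respiration, were lower in TF2, while PPDK, the pyruvate orthophosphate dikinase (0.87, limma adjusted p = 0.000841), and SDH2-1, a succinate dehydrogenase subunit (0.46, adjusted p = 0.0246), were higher as deposited and not called after quantile normalization (−0.12 and 0.21); SDH2-1 was also not called without wild type replicate 2 (adjusted p = 0.212) or either TF2 array (0.0572 and 0.102). SDH2-1 is also a member of the mitochondrial list. GAPC2, the cytosolic glyceraldehyde-3-phosphate dehydrogenase, read 1139 and 996 in wild type, 169 and 210.2 in TF2 and 375 and 366 in TF1 (log2 change −2.44, limma adjusted p = 1.13e-06; TF2 minus TF1 −0.94, adjusted p = 0.0084). TPI, a triose phosphate isomerase, read 484 and 531, 158 and 93.2, and 261 and 268 (−1.97, adjusted p = 6.24e-05; TF2 minus TF1 −1.06, adjusted p = 0.0271). cICDH, the cytosolic isocitrate dehydrogenase, read 671 and 739.6, 100.6 and 102.9, and 250.0 and 336 (−2.67, adjusted p = 1.88e-06; TF2 minus TF1 −1.42, adjusted p = 0.00163). CYTC-1, a cytochrome c, read 972 and 939.6, 150.5 and 134.4, and 318 and 328 (−2.66, adjusted p = 4.73e-07; TF2 minus TF1 −1.13, adjusted p = 0.00234). In all 4 genes TF1 lay between wild type and TF2, and the 4 falls were about as large after quantile normalization (−2.53, −1.86, −2.67 and −2.72). The GAPDH control probe sets read lower as well, and the leaf markers were lower on the same arrays; their part in these values was not tested.

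The changes of 4 further genes with signals in the middle of the range differed little between the scalings. ATU2AF65A, the large subunit of the U2AF splicing factor, read 182 and 244 in wild type, 739.6 and 794 in TF2 and 597 and 482 in TF1 (1.81, adjusted p = 1.86e-05; 1.94 after quantile normalization). POLA3, a subunit of the DNA polymerase alpha and primase complex, read 85.2 and 83.9 against 225 and 221 (1.30, adjusted p = 0.00263; 1.58). DL1B, a dynamin-like protein, read 199 and 189 against 355 and 400.3 (0.92, adjusted p = 0.00244; 1.20). PRA1.B4, a prenylated Rab acceptor, read 480.0 and 419 against 909 and 941 (1.03, adjusted p = 0.000542; 0.98). By contrast PIPK11, a phosphatidylinositol phosphate kinase of the pollen tube with strong signal, went from 3288 and 2773 to 7336 and 7198 (1.26, adjusted p = 1.21e-05; 0.35), and SAMDC, the decarboxylase of polyamine synthesis, from 8034 and 6121 to 16098 and 17450.0 (1.26, adjusted p = 3.85e-05; 0.27 and not called).

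ATERDJ3B, a chaperone of the endoplasmic reticulum, read 486 and 414 in wild type, 219 and 205 in TF2 and 553 and 547 in TF1, so that TF2 lay below both other groups (TF2 minus wild type −1.04, adjusted p = 0.000541; TF2 minus TF1 −1.33, adjusted p = 0.000841).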
